A study of Mus musculus with 8 samples.

Results

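The cells that line blood vessels were followed here through 10 genes in the diaphragm of normal and dystrophic mice: Pecam1, Cdh5, Kdr, Flt1, Tek, Tie1, Esam, Ramp2, Emcn and Cldn5. They were taken from a list of endothelial marker genes, by name and not by a threshold on the measured values, although earlier results of these data were known when the list was chosen. All probe sets whose platform annotation names exactly 1 gene symbol, and that symbol a member, were used, which gave 13 probe sets out of 22626 on the array that are not controls, or 10 of 12393 genes. A further 2 probe sets, annotated to Ramp2 and a second gene together, were left out. The dystrophic mice were dy/dy homozygotes, which have a muscular dystrophy with deficient laminin. The normal mice were labelled only as the controls for dy/dy, with no strain or sex stated in the labels. Both groups were 8 weeks old and the labels name no treatment. Each of the 4 arrays per group carried total RNA of diaphragm from 3 mice, 12 mice per group, so the pool is the replicate and differences between single mice are hidden.

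Endothelial cells form the inner wall of every vessel, and in skeletal muscle most of them lie in capillaries that run along the fibres. Vascular endothelial growth factor acts on them through the receptor tyrosine kinase encoded by Kdr, while the product of Flt1 binds the same ligand and largely restrains it. Angiopoietins signal through Tek, and the related Tie1 modulates that receptor. The cells are held together by VE-cadherin (Cdh5), claudin 5 (Cldn5), PECAM-1 (Pecam1) and ESAM (Esam). Transcription factors of the ETS family, which bind DNA around the letters GGAA, take part in the expression of many endothelial genes.

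Promoter sequences were shown for the 6 members with an entry in the RefSeq promoter table (build GRCm38.p6). The other members had no entry. Some of the 6 had lower means in dystrophic muscle and some nearly equal means, but none passed the test described below. The 150 bases before the annotated start are printed 5′ to 3′ on the gene's own strand, with GGAA, or TTCC where the core lies on the other strand, in capitals.

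Kdr chr5:75978456-75978605 (minus strand): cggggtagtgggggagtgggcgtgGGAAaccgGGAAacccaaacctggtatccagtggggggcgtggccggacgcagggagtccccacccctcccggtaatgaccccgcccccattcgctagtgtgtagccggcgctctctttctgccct
Flt1 chr5:147726012-147726161 (minus strand): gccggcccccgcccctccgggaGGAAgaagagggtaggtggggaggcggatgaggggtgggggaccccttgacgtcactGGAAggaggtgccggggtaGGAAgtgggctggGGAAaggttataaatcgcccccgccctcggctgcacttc
Tek chr4:94739139-94739288 (plus strand): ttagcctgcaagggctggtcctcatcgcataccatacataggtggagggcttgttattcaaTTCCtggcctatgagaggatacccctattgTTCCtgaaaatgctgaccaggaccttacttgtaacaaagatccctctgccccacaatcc
Tie1 chr4:118489850-118489999 (minus strand): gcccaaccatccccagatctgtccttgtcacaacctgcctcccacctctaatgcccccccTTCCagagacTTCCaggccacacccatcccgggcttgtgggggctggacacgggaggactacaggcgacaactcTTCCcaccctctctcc
Emcn chr3:137340928-137341077 (plus strand): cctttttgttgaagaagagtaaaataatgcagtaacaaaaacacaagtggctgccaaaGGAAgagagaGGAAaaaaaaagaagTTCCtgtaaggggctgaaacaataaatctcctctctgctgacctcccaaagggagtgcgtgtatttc
Cldn5 chr16:18776697-18776846 (plus strand): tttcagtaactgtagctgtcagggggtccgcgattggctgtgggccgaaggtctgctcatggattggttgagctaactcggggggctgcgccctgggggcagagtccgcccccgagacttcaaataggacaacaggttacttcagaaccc

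In these windows 5 of the 6 promoters held at least 1 ETS core. Flt1 had 4, Tie1 and Emcn had 3 each, Kdr and Tek had 2 each, and Cldn5 had 0. The core is short and common: 80.8% of the 32817 promoter windows of the same length in the table held it, with a median of 2 copies. The Flt1 window also held the letters TGACGTCA, a cyclic AMP response element, beginning 81 bases before the start. It held a TATA box (TATAAA) that begins 31 bases before the start. Of all windows, 1.36% held the former and 7.58% the latter on either strand. GC boxes (GGGCGG on either strand) were found in Kdr, Flt1 and Cldn5 and in 28.6% of all windows. The Emcn window was the poorest in G and C of the 6, at 40.7%, and the Flt1 window the richest, at 68.0%.

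None of the 13 endothelial probe sets passed the test between dystrophic and normal diaphragm. All 10 genes had signal in every pool: the lowest member signal was 185, and the TrpnX control probe sets, taken as a background level, reached at most 32.2. Log2 differences, dystrophic minus normal on a scale of log2(signal + 16), ran from -0.41 for a Flt1 probe set to 0.12 for Pecam1. Limma, a linear model that shares an estimate of the spread across probe sets, called 0 of 13 at a Benjamini-Hochberg adjusted p under 0.05, and the adjusted p ranged from 0.452 to 0.990. Over all 13575 probe sets tested it called 67, or 0.494%. All 13 member probe sets were bright enough to be tested. At an unadjusted p under 0.05, 3 of the 13 were lower, against 4.13% of all probe sets tested, and 0 were higher, against 5.6%. With 1 probe set per gene, the brightest, 2 of the 10 genes were lower at that p, against 4.19% of all genes. By gene 0 were higher, against 6.57%. The groups overlapped in all 13, while they did not overlap in 6.4% of all probe sets tested. In bulk tissue, fewer endothelial cells and less RNA per endothelial cell cannot be told apart.

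The intervals give the precision of each probe set taken alone, and they are not a joint bound over the 13. In simulated data the fit called 34 of 49 tested changes of 2-fold and 13 of 48 of 1.5-fold, so changes of these sizes can go uncalled. Those data had independent noise and 50 planted changes at each size from 1.5-fold to 8-fold. They gave 148 calls, 13 of them false, against 67 calls in the real data, so recovery in the real arrays can differ. The 95% interval of every member probe set lay between -0.95 and 0.49, inside a 2-fold change in either direction (1 on the log2 scale). They do not bound smaller changes: the interval of Kdr, for example, ran from -0.89 to 0.34. The SE of the 13 differences lay between 0.13 and 0.28, with a median of 0.18, like the median over all probe sets tested, 0.18.

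**Figure D1:**
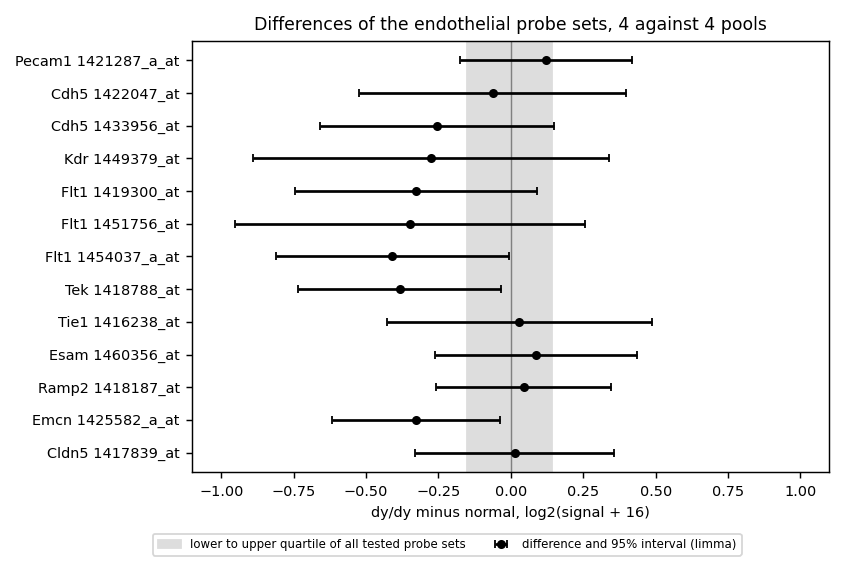
Log2 difference, dystrophic minus normal, on log2(signal + 16), of each of the 13 endothelial probe sets (points) with its 95% interval from limma (bars), 4 pools per group. The grey band spans the lower to the upper quartile of all 13575 probe sets tested, from -0.15 to 0.14, and points for Flt1, Tek, Emcn, Kdr and the brighter Cdh5 probe set lie to its left while the rest lie within it.

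Tek, the angiopoietin receptor, had a lower mean in dystrophic muscle. Its signal was 443, 542, 673 and 656 in normal replicates 1 to 4 and 406, 502, 435 and 398 in dystrophic replicates 1 to 4. Of the dystrophic pools 3 lay below every normal pool, but dystrophic replicate 2 lay above normal replicate 1, so the groups overlapped. The means were 578 ± 108 and 435 ± 47.2 (SD, n = 4). On the log2 scale they differed by -0.38 (SE 0.16, adjusted p from limma 0.463). An exact two-sided permutation test on the log2 values gave p = 0.0571, where 0.0286 is the smallest that 4 against 4 allows.

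Tie1 encodes the partner receptor of Tek, and its signals did not separate the groups. It had 253, 441, 297 and 280 in normal pools and 328, 429, 241 and 298 in dystrophic pools. Replicate 2 was the highest pool of both groups, and the dystrophic pools spanned nearly the same range as the normal ones. On the log2 scale the difference was 0.03 (SE 0.21), with a 95% interval from -0.43 to 0.49.

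Flt1 was measured by 3 probe sets, and all 3 had a lower mean in dystrophic muscle. Probe set 1454037_a_at had 346, 389, 256 and 339 in normal and 305, 185, 259 and 242 in dystrophic pools. Only normal replicate 3 lay as low as the dystrophic pools. On the log2 scale it differed by -0.41 (SE 0.18), at an adjusted p of 0.509 in limma.

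Probe set 1419300_at of Flt1 had 872, 731, 598 and 706 in normal and 755, 603, 398 and 584 in dystrophic pools. The pools overlapped, with dystrophic replicate 1 as high as the normal pools. Its log2 difference was -0.33 (SE 0.19). Probe set 1451756_at had 996, 866, 405 and 952 in normal and 863, 531, 483 and 560 in dystrophic pools, where normal replicate 3 was the lowest of all 8. Its log2 difference was -0.35 with the wide SE of 0.28. The labels do not say which Flt1 transcript forms, membrane-bound or soluble, each probe set detects.

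Kdr, the main signalling receptor for vascular endothelial growth factor, varied more between pools than between groups. Its signal was 957, 1062, 476 and 816 in normal and 983, 789, 502 and 463 in dystrophic pools. Normal replicate 3 and dystrophic replicates 3 and 4 were low, and the other pools of both groups were high. The means were 828 ± 255 and 684 ± 246 (SD, n = 4), with a log2 difference of -0.28 (SE 0.28). Its interval, from -0.89 to 0.34, was among the widest of the members.

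Ramp2 encodes the accessory protein that turns the calcitonin-like receptor into a receptor for adrenomedullin. Its signal was 1418, 1346, 1127 and 1561 in normal and 1318, 1643, 1315 and 1332 in dystrophic pools. The 4 dystrophic pools lay inside the normal range apart from replicate 2. The log2 difference was 0.04 (SE 0.14), with an interval from -0.26 to 0.35.

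**Figure D2:**
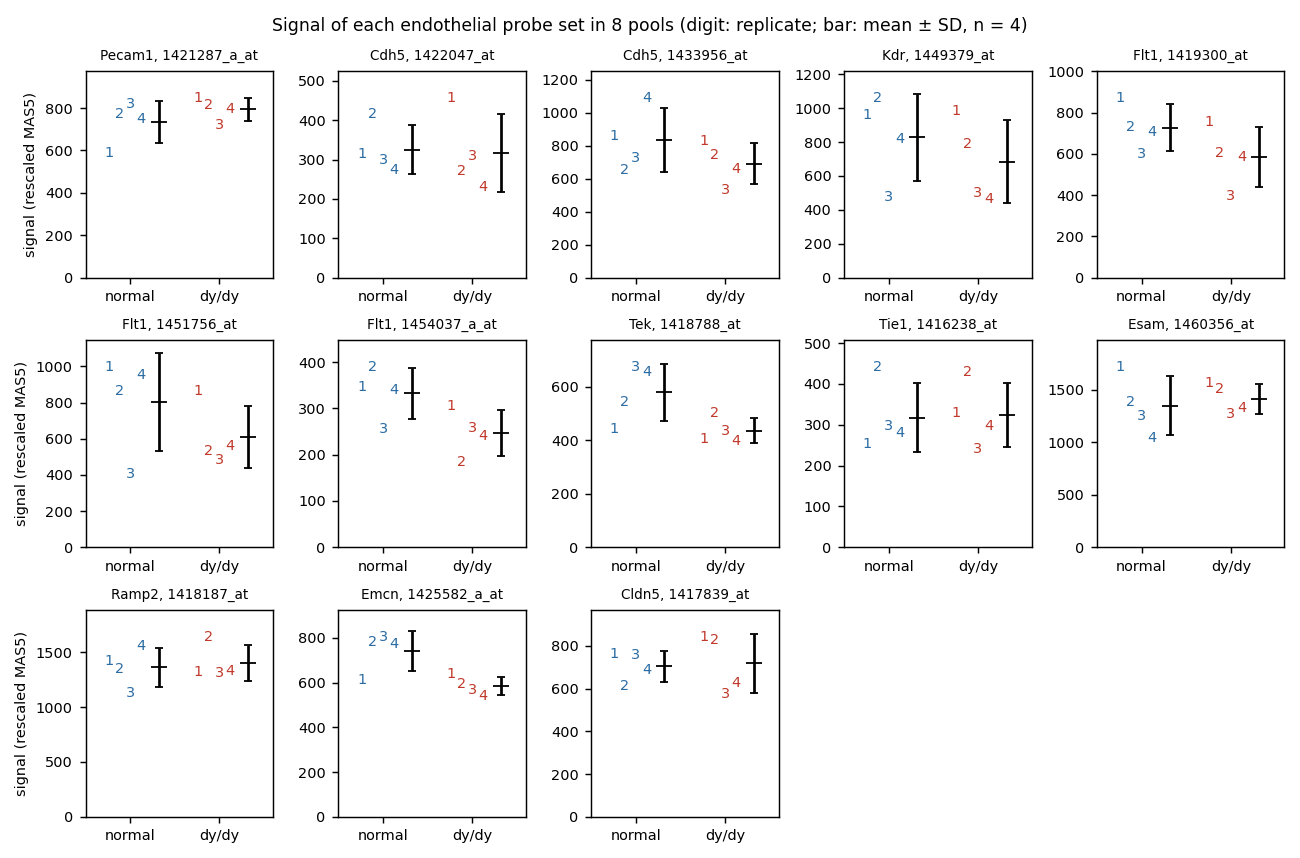
Signal of the 13 endothelial probe sets, 1 panel each, in arbitrary units after rescaling each array, with each digit marking the pool of that replicate number (blue normal, red dystrophic) and bars the mean ± SD of 4 pools. The groups overlap in every panel, and in the panels of Tek and Emcn 3 of the 4 dystrophic pools lie below all normal pools.

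Emcn encodes endomucin, a surface sialomucin of capillary and venous endothelium. Its signal was 612, 782, 805 and 771 in normal and 639, 594, 568 and 542 in dystrophic pools. Normal replicate 1 fell among the dystrophic pools, and the other normal pools lay above all of them. The means were 742 ± 88.4 and 586 ± 41.4 (SD, n = 4), and the log2 values differed by -0.33 (SE 0.13), with the smallest adjusted p of the members in limma, 0.452. The exact permutation test gave p = 0.0571 here too. Tek and Emcn were singled out for this test after their values were seen, and theirs were its smallest p among the members. For the other member probe sets the same test gave p from 0.0857 (Flt1, 1454037_a_at) to 0.914 (Cldn5).

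At the junctions, the values leaned in no common direction. Cdh5, the adherens cadherin of endothelium, had 861, 655, 727 and 1091 in normal and 829, 745, 534 and 659 in dystrophic pools on its brighter probe set (1433956_at). Normal replicate 4 was the highest pool and dystrophic replicate 3 the lowest, and the others were mixed. Its log2 difference was -0.26 (SE 0.19).

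Its dimmer probe set (1422047_at) had 314, 415, 298 and 274 in normal and 457, 271, 310 and 229 in dystrophic pools. Both the highest and the lowest pool were dystrophic, and the log2 difference was -0.06 (SE 0.21).

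Pecam1 had 590, 774, 819 and 748 in normal and 849, 813, 719 and 795 in dystrophic pools. The groups were mixed apart from normal replicate 1, which was the lowest. Its log2 difference was 0.12 (SE 0.14), the highest of the members.

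Esam, an adhesion molecule of the tight junction, had 1713, 1386, 1249 and 1038 in normal and 1565, 1503, 1263 and 1325 in dystrophic pools. All dystrophic pools lay inside the normal range, and the log2 difference was 0.09 (SE 0.16). Cldn5, the claudin that seals endothelial tight junctions, had 760, 611, 758 and 686 in normal and 843, 827, 575 and 625 in dystrophic pools. Dystrophic replicates 1 and 2 were the highest and replicate 3 the lowest of all pools. The log2 difference was 0.01 (SE 0.16).

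Pecam1 is also made by platelets and by monocytes and macrophages. The summed signal of all 12 macrophage genes listed ran from 6625 to 8757 in normal and from 11060 to 12040 in dystrophic pools. Of the 11 tested, 3 rose and 0 fell, where limma called 0.645% of 8214 genes, each gene counted by its brightest probe set. These 3, named after their values were seen, were Mpeg1 (log2 difference 2.03, SE 0.24), Ctss (1.33, SE 0.16) and Cd68 (0.96, SE 0.15). The other 8 did not pass. Of the 11 tested, 10 lay above 0, with a median of 0.72. Only Cd163, a scavenger receptor of macrophages, lay below, at -0.35 (SE 0.26). The summed signal of 7 platelet genes ran from 1820 to 2383 in normal and from 1819 to 2154 in dystrophic pools. Their part in the Pecam1 signal was not tested.

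Across the members, 8 of 13 probe sets had a difference below 0, against 52.3% of all probe sets tested. The median difference of the 13 was -0.26, against -0.01 for all probe sets tested. Flt1 contributed 3 and Cdh5 2 of the 13, and with 1 probe set per gene, the brightest, 5 of 10 lay below 0 and the median was -0.12. The median over the 13 was -0.14 without dystrophic replicate 3 and -0.12 without dystrophic replicate 4. It was -0.35 without dystrophic replicate 1 and -0.28 without dystrophic replicate 2. Without normal replicates 1, 2, 3 and 4, each left out alone, it was -0.19, -0.14, -0.29 and -0.13. Leaving out 1 pool thus moved the median in either direction. With both normal replicate 4 and dystrophic replicate 3 left out it was -0.14.

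The pools differed in the mean level of the 10 genes. With each gene centred on its own mean over the 8 pools, the mean of the 10 genes was 0.07, 0.14, -0.09 and 0.14 in normal replicates 1 to 4 and 0.12, 0.08, -0.27 and -0.19 in dystrophic replicates 1 to 4. Dystrophic replicates 1 and 2 were as high as the normal pools, and replicates 3 and 4 were the 2 lowest of all. In dystrophic replicate 3, 0 of the 10 genes lay above its own mean, and in dystrophic replicate 4 only Pecam1 did.

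Dystrophic replicate 3 also held liver transcripts. The summed signal of 10 liver genes was 64400 there, 5619 to 9093 in the other dystrophic pools and 2755 to 5587 in normal pools. Of the 3 markers of liver sinusoidal endothelium, Stab2, Clec4g and Oit3, only Stab2 was bright enough to be tested, at 0.12 (SE 0.20). Their summed signal was 179 to 390 in normal and 228 to 405 in dystrophic pools, highest in dystrophic replicate 3. Their part in the endothelial values was not tested.

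**Figure D3:**
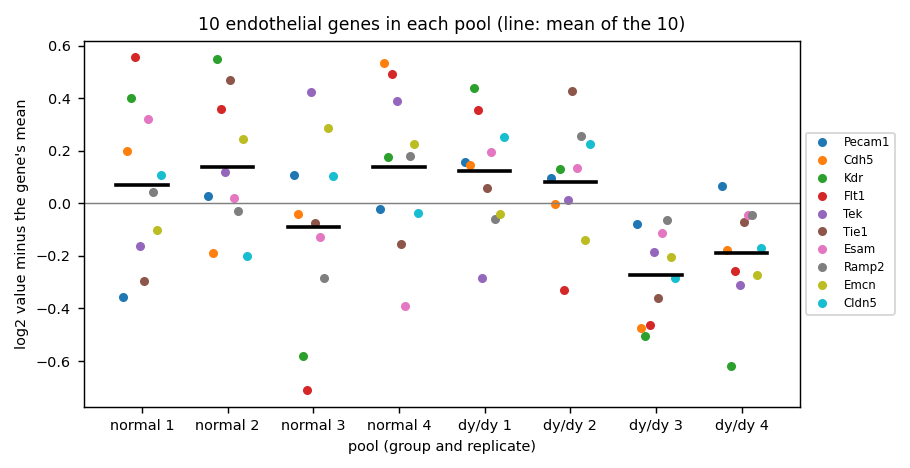
Log2(signal + 16) of each of the 10 endothelial genes (coloured points, brightest probe set) minus its mean over the 8 pools, for each pool along the horizontal axis, with the mean of the 10 as a black line. The lines of dystrophic replicates 3 and 4 lie at -0.27 and -0.19, and the other 6 pools lie between -0.09 and 0.14.

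The members varied together only in part. The Pearson r of a member with the mean of the other members ran from -0.09 for Pecam1, the only negative one, to 0.81 for Kdr. Over 45 pairs of members the median Pearson r across the 8 pools was 0.19, and 32 pairs were above 0. Tek and Emcn had the highest, 0.87, or 0.71 on deviations from the group means. On those deviations Pecam1 and Emcn had the highest, 0.91, but only 0.19 over the 8 pools. Kdr and Flt1, both receptors for vascular endothelial growth factor, had 0.84, or 0.83 on those deviations, and shared low values in normal replicate 3. Tek and Esam had the lowest r, -0.61. These are descriptions over 8 arrays, which also share the scaling of each array.

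Among 8204 other genes, the 5 whose profile over the 8 pools was most like the mean of the members were Opa3 (r = 0.963), Morf4l2 (0.962), Sorl1 (0.959), B230219D22Rik (0.957) and Mrpl44 (0.949). None of the 5 was on a list of endothelial genes. Robo4, an endothelial guidance receptor with an r of 0.912, was the most alike of 23 further endothelial genes, whose median r was 0.25, against 0.05 for all genes outside the members. With 8 arrays and 8204 genes, high values of r are found for many unrelated genes.

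A list of 30 further endothelial genes also held no called gene. Of the 23 that were bright enough to be tested, 0 rose and 0 fell, where 0.645% of all genes were called. At an unadjusted p under 0.05, 4 of the 23 were lower, against 4.19% of all genes, and 0 were higher, against 6.57%. Of the 23, 14 lay below 0, against 51.5% of all genes, and the median was -0.08. Cd34, a sialomucin of endothelium and stromal progenitors, had a signal of 1432 to 1950 in normal and 1647 to 2421 in dystrophic pools, and differed by 0.23 in log2 (SE 0.15). Eng, the TGF-beta co-receptor endoglin, had 1149 to 1758 in normal and 809 to 1322 in dystrophic pools. Its log2 difference was -0.41 (SE 0.18, limma adjusted p = 0.493), and its other tested probe set was at -0.30 (SE 0.13). These ranges overlapped for both genes.

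Ligands and partners of the member receptors mostly had lower means in dystrophic muscle, with no call. Of 16 listed, 13 were tested, 11 of these lay below 0, against 51.5% of all genes, and the median was -0.32. Limma called 0, against 0.645% of all genes. The unadjusted p was under 0.05 in 4 of the 13, each lower in dystrophic muscle, against 4.19% of all genes that were lower at that p. The brightest was Vegfb, a ligand of Flt1, with a signal of 4473, 4047, 4036 and 5354 in normal and 3068, 3156, 2737 and 3835 in dystrophic pools. Its groups did not overlap, as in 6.4% of all probe sets tested. The log2 difference was -0.48 (SE 0.14, limma adjusted p = 0.228). Nrp1, a co-receptor of Kdr, had 1835, 2209, 2319 and 1997 in normal and 1843, 1652, 1374 and 1677 in dystrophic pools on its brightest probe set. Only normal replicate 1 was matched by a dystrophic pool. Its difference was -0.35 (SE 0.13), and its other 2 tested probe sets were at -0.44 and -0.47.

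Vegfa and Ramp1 were picked out after their values were seen. Vegfa, the main ligand of Kdr and Flt1, had 1176, 1774, 1639 and 1509 in normal and 968, 1138, 1255 and 1056 in dystrophic pools on its brighter probe set. The difference was -0.45 (SE 0.15, adjusted p = 0.311). On that probe set dystrophic replicate 3 lay above normal replicate 1, so the groups overlapped. The dimmer Vegfa probe set was at -0.12 (SE 0.26). Ramp1, an accessory protein that gives the calcitonin-like receptor its specificity for calcitonin gene-related peptide, had 1674, 1546, 2305 and 2369 in normal and 1048, 1569, 1043 and 982 in dystrophic pools. Dystrophic replicate 2 lay just above the lowest normal pool, and the other 3 lay below. The log2 difference was -0.76 (SE 0.19, adjusted p = 0.139). The angiopoietins, ligands of Tek, were dim, with Angpt1 at -0.36 (SE 0.33) and Angpt2 at -0.32 (SE 0.24).

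Genes that act with the members at cell junctions were called in 0 of 9 tested, with a median of -0.01. Limma called 0.645% of all genes, a share at which a list this short rarely holds a call. Ctnnb1, the β-catenin that binds cadherins, was at -0.01 (SE 0.12), and Ctnna1, α-catenin, at 0.22 (SE 0.12). These genes are also expressed by other cells of muscle. Of 5 tested genes of endothelial activation, which recruit leukocytes to the vessel wall, 0 were called, against the same 0.645%, and the median was 0.21. The brightest were Icam1, an adhesion molecule for leukocytes, at -0.09 (SE 0.23), and Ackr1, a chemokine-binding receptor of venules, at 0.21 (SE 0.22). The selectin genes Sele and Selp were too dim to be tested.

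Of 4 tested lymphatic genes 0 were called, where 0.645% of all genes were called, and the median was 0.08. Reln, a secreted glycoprotein made by lymphatic endothelium, had 924, 778, 851 and 869 in normal and 1010, 1179, 1295 and 1119 in dystrophic pools. These did not overlap, as in 6.4% of all probe sets tested. Its log2 difference was 0.42 (SE 0.12, limma adjusted p = 0.234). Lyve1, a hyaluronan receptor of lymphatic endothelium and some macrophages, was at 0.15 (SE 0.15). The other tested genes, Pdpn and Flt4, were near 0, at 0.007 (SE 0.16) and -0.06 (SE 0.13). The lymphatic regulator Prox1 was too dim to be tested.

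Genes of the cells that surround the endothelium were also compared. Of 11 smooth muscle and pericyte genes tested, 0 were called, with a median of -0.06. At the share of all genes called, 0.645%, lists as short as those here rarely hold a call. Fibroblast genes had a median of 0.58, with 2 of 8 that rose and 0 that fell, against 0.645% of all genes called. The 2, also named after their values were seen, were the matrix genes Lum (log2 difference 1.24, SE 0.14) and Col1a2 (0.88, SE 0.14). Of the 8, 7 lay above 0, and only Thy1 lay below, at -0.27 (SE 0.15). The summed signal of the fibroblast genes ran from 27650 to 34090 in normal and from 39830 to 51020 in dystrophic pools. Muscle fibre genes had a median of -0.21 with 0 of 13 called. Their summed signal was highest in normal replicate 4, at 301500, and 200900 to 241200 in the other normal pools, against 200300 to 225200 in dystrophic pools. Mesothelial genes, from the lining of the diaphragm, had a median of 0.21 with 0 of 4 called. The share of the RNA that came from other cells moves every signal on an array scaled to a common mean, and its part in the endothelial values was not tested.

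**Figure D4:**
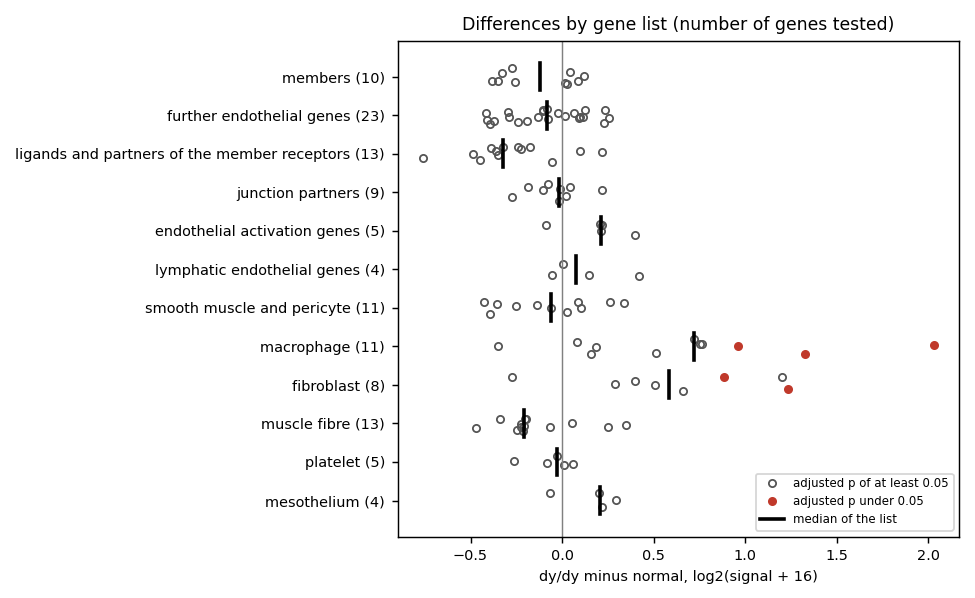
Log2 difference, dystrophic minus normal, on log2(signal + 16), of each tested gene (circles, brightest probe set) in 12 gene lists, with filled circles for a limma adjusted p under 0.05 and a black bar for the median of each list. The endothelial lists hold no filled circle, with medians from -0.32 (ligands and partners) to 0.21 (activation genes). Filled circles appear in the macrophage and fibroblast lists.

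The arrays formed 3 sets by the signal of poly-A controls spiked into the RNA: replicate 1 of both groups, replicate 3 of both, and replicates 2 and 4 of both. Within them the Tek difference was -0.12, -0.61 and -0.40, and the Emcn difference 0.06, -0.49 and -0.44. For Flt1 (1454037_a_at) it was -0.17, 0.01 and -0.74. Other members also changed sign between the sets: Kdr was at 0.04, 0.08 and -0.61, and Pecam1 at 0.51, -0.18 and 0.08. The brighter Cdh5 probe set was lower in all 3, at -0.05, -0.44 and -0.27. The first 2 sets hold 1 array per group and allow no test.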

How the data were processed

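Diaphragm RNA of 4 normal and 4 dystrophic pools was measured on 8 Affymetrix arrays. The authors deposited signal intensity values from MAS5, per the submitters' processing notes; the labels state neither its version nor detection calls. Arrays differed in their 2% trimmed mean (400.2 for normal replicate 4, 500.2 for the other 7), and each was rescaled to the mean of the 8 values, 487.7. The number of arrays limits the precision. Controls and the lowest 40% of probe sets by mean log2(signal + 16) were left out. The 13575 others entered a fit with limma 3.58.1 under R 4.3.3 (eBayes with an intensity trend, two-sided, Benjamini-Hochberg). An array of pooled mice is the replicate.

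Symbols come from the platform annotation (20380 probe sets with 1 symbol, 691 with several, 1555 with none) and were updated by Entrez identifier through a RefSeq table of GRCm38.p6 (20351 matched). Members are all named. Of the further endothelial, ligand, junction, activation and lymphatic lists the called genes were named, or the 2 brightest where none was called, and the 5 genes most like the mean of the members. The members and lists were chosen with earlier results of these data known. The fit was tested on simulated data. Figures used matplotlib 3.10.9 in Python 3.11.15. Alternatives were offsets of 1 and 64, quantile and 75th percentile normalization, values as deposited, no filter or 60%, no trend, robust hyperparameters, array weights, blocks by replicate number or spike-in level, gene means, and arrays left out.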

Additional observations from a re-analysis of the deposited data

Results flagged for a closer look

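Among 26 sets of 4 pools (13 member probe sets in 2 groups), 1 held a pool far from the others. Ramp2 had a signal of 1643 in dystrophic replicate 2, while the other 3 dystrophic pools lay between 1315 and 1332; the gap to the nearest pool was 0.946 of the range of the group. Chance flags about 1 such set in 20.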

How the results depend on the processing

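No member probe set was called in any of the 21 alternative fits, and the smallest adjusted p was 0.212 (Emcn). Of 273 member values from these fits 258 kept their direction; the other 15 belong to members near 0. Cdh5 (1422047_at) was at 0.013 on values as deposited and -0.25 to 0.069 over the fits without 1 array. Cldn5 was at -5.45e-04 after a 75th percentile shift, and Tie1 at -0.0079 after quantile normalization and -0.051 with array weights. Without 1 array Cldn5 ran from -0.069 to 0.11, Tie1 from -0.11 to 0.19, Ramp2 from -0.043 to 0.11 and Esam from -0.028 to 0.21. Tek, Emcn, Kdr, Flt1, Pecam1 and the brighter Cdh5 probe set kept their sign in all 21. The median of the members ran from -0.35 to -0.12. The further endothelial, ligand and junction lists had 0 calls in every fit, also on the mean of the probe sets of a gene. The count over all probe sets, 67, was 127 with array weights, 31 without normal replicate 4 and dystrophic replicate 3 together, 114 with the spike-in level as a block and 25 to 61 with 1 array left out, with 34, 29 and 25 without dystrophic replicate 2, 3 or 4. With the replicate number as a block (replicate block) it was 105 and no member was called. The smallest limma adjusted p of a member was then 0.296 (Flt1, 1419300_at), against 0.630 for that probe set in the main fit. Same-numbered arrays deviated together in 3 of 4 pairs (correlation over 0.1, and -0.05 in the other). Of 8 arrays, 4 correlated best with their own number, and same-numbered arrays shared a spike-in level set. The number was not taken as a pairing, so the main SE and adjusted p do not allow for what such arrays share. The number of arrays limits what can be called: the SE of the member differences ran from 0.13 to 0.28.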
